A study of Dendrobium officinale with 6 samples.

Results

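In leaves of the orchid Dendrobium officinale, 179 of the 60597 assembled genes were very abundant in control leaves and moderately lower after a spray of methyl jasmonate (MeJA). They were chosen on the values themselves. A gene was taken when the mean of its 3 control libraries was at least 500 TPM, its highest MeJA library lay below its lowest control library, and its highest MeJA library was above 0.5 of its lowest control library. TPM is a transcript level corrected for transcript length and scaled to a common sum in each library. The rule uses the same 6 libraries that are described here, so the lower level under MeJA is how the genes were chosen and not a result. Their levels in both groups are given as a description, with no test.

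The treated leaves came from plants 6 months old that were sprayed with 100 µM MeJA in ethanol and were taken at 24 h. The control leaves came from plants of the same age that received the ethanol solvent alone. The labels' protocols give no sampling time for them, so a difference in time cannot be told apart from MeJA. Each group holds 3 libraries of total leaf RNA, and the plants grew at 25 °C under 12 h of light a day. No cultivar is named. Nothing in the labels tells separate plants from pooled or repeated material, so the spread within a group, and any p-value, may be technical. Fewer cells of a type in the leaf and less RNA per cell cannot be told apart in such samples.

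Jasmonates are plant hormones made from membrane lipids and are known for their part in the response to wounding and herbivores. In the cell the active form, a conjugate of jasmonic acid with isoleucine, is bound by the receptor COI1, which leads to the breakdown of JAZ repressor proteins and frees transcription factors such as MYC2. In leaves, jasmonate treatment is known to raise defence and specialised metabolism and to lower many transcripts of photosynthesis and growth. The genes described here carry only the identifiers of a transcriptome assembly. No product, protein family or sequence was paired with them, so none of them is assigned to photosynthesis or to any other function, and the leaf label was not checked against marker genes. They are called by their rank in control mean among the 179 genes.

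In control leaves the 179 genes together held 19.2%, 19.3% and 18.7% of all TPM in libraries 1, 2 and 3. Under MeJA they held 12.7%, 13.6% and 11.9%. The control share averaged 19.1% ± 0.328 and the MeJA share 12.7% ± 0.833 (SD, n = 3 each), a difference of -6.34 percentage points. The groups lay far apart in this sum, as the choice of the genes makes them. Of the 10 most abundant genes in control leaves 8 were among the 179, and of the 10 most abundant under MeJA 0 were. Within the first 100 genes by level there were 80 of them in controls and 41 under MeJA. The number at 1000 TPM or more went from 61 in controls to 23 under MeJA, and 111 of the 179 still had a MeJA mean of at least 500 TPM. Across the 179 genes the control and MeJA means had a Spearman correlation of 0.91, which the rule largely fixes by holding MeJA levels within a narrow range of the controls.

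The 179 made up most of the 233 genes that reached 500 TPM on average in controls. In the others, 23 had all MeJA libraries above all controls, 22 had groups that overlapped, and 9 were lower beyond the limit of the rule. Over all 55498 genes tested, 27.9% had every MeJA library below every control and 11.8% had every MeJA library above.

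**Figure D1:**
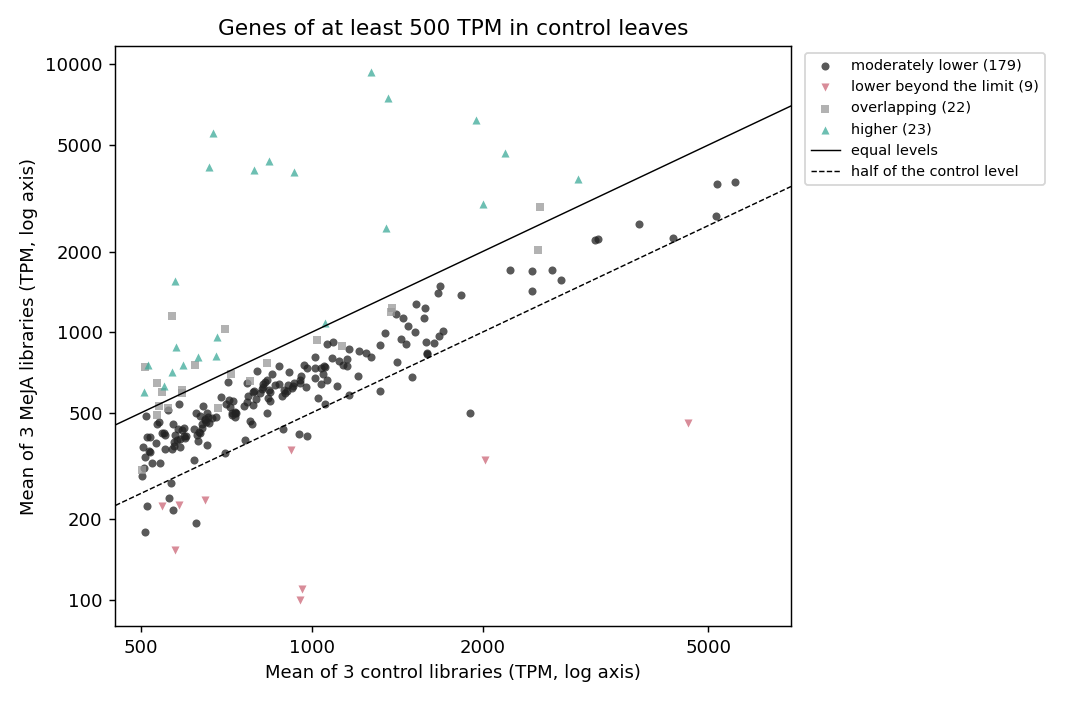
Mean level in the 3 MeJA libraries against the mean in the 3 control libraries, both in TPM on log axes, for the 233 genes that reached 500 TPM on average in controls. The 179 genes chosen by the rule (black dots) form a band mostly between the line of equal levels and the line at 0.5 of the control level, below the 23 genes that were higher under MeJA.

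The most abundant transcript of the control leaf was TRINITY_DN23599_c1_g1, rank 1. It stood at 5640.2, 5732 and 5355 TPM in control libraries 1, 2 and 3, and at 3552, 3888 and 3445 TPM in MeJA libraries 1, 2 and 3. The MeJA mean was 65.1% of the control mean, and the gene went from place 1 to place 12 among all genes. Rank 2 had 5119, 5794 and 4644 TPM in controls and 3529.9, 4347 and 2828 TPM under MeJA. Its groups were close, with MeJA library 2 just below control library 3, and its coefficient of variation (SD as a percentage of the mean) was 11.1% in controls and 21.3% under MeJA. Rank 3, at 5286, 4888 and 5319.8 TPM in controls, was at 2801, 2968 and 2412 TPM under MeJA. Rank 4 went from 4558, 4177 and 4259.8 TPM to 2262, 2434 and 2034 TPM. These last genes lay lowest of the first 4 relative to their controls, at 52.8% and 51.8% of the control mean, with groups far apart.

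Rank 5 had 3826, 4092 and 3406 TPM in controls and 2585, 2397 and 2654 TPM under MeJA, and MeJA library 3 was here the highest of the treated libraries. Rank 6 had 3159, 3057 and 3366 TPM against 2251, 2358.5 and 2091 TPM. For rank 7 the values were 3055, 2772 and 3646 TPM in controls and 2231, 2421 and 1949 TPM under MeJA. All 3 lay between 67.4% and 69.9% of their control means. Rank 8 was the most uneven of the 179 in controls, at 2923, 3555 and 1775 TPM, with a coefficient of variation of 32.8%. Under MeJA it was at 1567, 1451 and 1688 TPM, so that control library 3 lay only just above MeJA library 3. Rank 9 went from 2629.7, 2854 and 2462 TPM to 1697, 1702 and 1717 TPM, and rank 10 from 2501, 2574 and 2258 TPM to 1446, 1497 and 1325 TPM. The MeJA libraries of rank 9 differed by 0.61% of their mean (SD), far less than its controls, at 7.42%. Ranks 1 to 10 summed to 3.82% ± 0.156 of the control transcript pool and to 2.38% ± 0.166 of the MeJA pool (SD, n = 3 each).

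**Figure D2:**
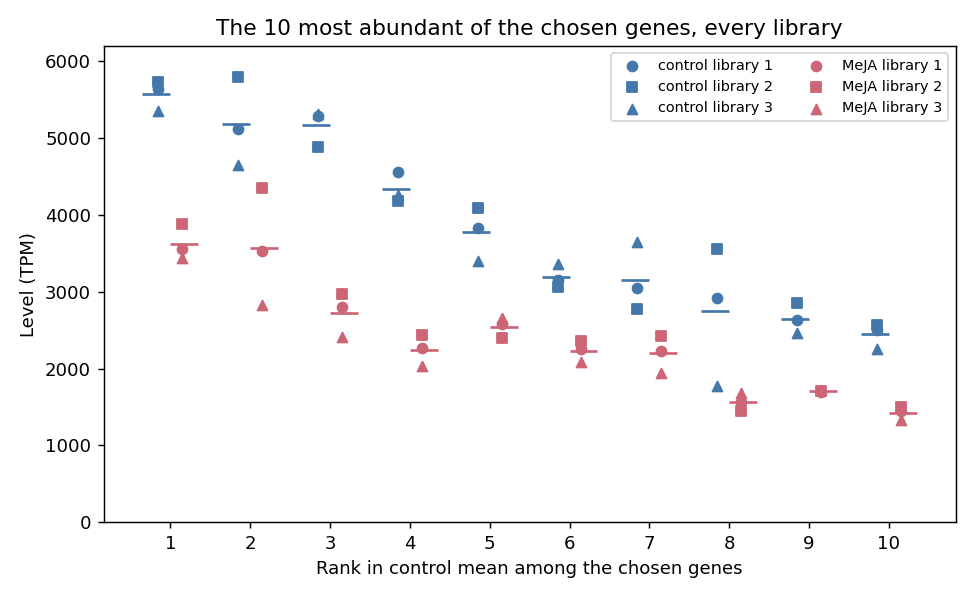
Level in TPM of the 10 most abundant of the 179 genes in each of the 3 control libraries (blue) and 3 MeJA libraries (red), with horizontal bars at the group means. For ranks 2 and 8 the groups nearly touch, with 4347 TPM in MeJA library 2 below 4644 TPM in control library 3 for rank 2.

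Most of the 179 genes lay in a narrow range relative to their controls. The median MeJA mean was 69.1% of the control mean, with quartiles of 63.7% and 74.6%. At 60% to 70% of the control mean there were 64 genes and at 70% to 80% 61. A further 18 lay at 80% or more, 24 at 50% to 60%, and 12 under 50%. The last are possible because the rule sets the highest MeJA library against the lowest control. Of these 12, 9 had a control mean below 1000 TPM, as did 118 of all 179. The median log2 fold change on the log2(TPM + 1) scale was -0.54, against -0.17 over all genes tested and -0.50 over the 233 genes of at least 500 TPM in controls. It was -0.59 for the 61 genes of 1000 TPM or more in controls and -0.52 for the 118 genes below that level, and its Spearman correlation with the control mean across the 179 genes was -0.15.

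The gene furthest below its controls was TRINITY_DN19902_c0_g2, rank 13, with 1934, 1647 and 2124 TPM in controls and 445, 861 and 194 TPM under MeJA. Its MeJA mean was 26.3% of the control mean, and the MeJA libraries were far apart, with library 2 highest and library 3 lowest. Rank 138 belongs to the same assembly component and had 616, 481 and 775 TPM in controls and 182, 331 and 68.6 TPM under MeJA. In both genes library 2 was highest under MeJA and lowest in the controls, and library 3 the reverse. Their coefficients of variation under MeJA, 67.3% and 68.0%, were the highest of the 179, followed by 31.7% at rank 52, which had 1011, 1092 and 1064 TPM in controls and 513, 723 and 384 TPM under MeJA. Rank 176 lay at 35.4% of its control mean, going from 538, 373 and 611 TPM to 177, 201 and 162 TPM, and here the unevenness was in the controls.

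At the other end, rank 174 was barely lower, with 505, 512 and 512 TPM in controls and 500.5, 471 and 489 TPM under MeJA. Rank 148 had 586, 579 and 581 TPM against 542, 531 and 543 TPM. Rank 159 had 562, 558 and 555 TPM against 520.2, 480.2 and 541 TPM. Their MeJA means were 95.5%, 92.5% and 92.0% of the control means, and the groups were kept apart by controls that differed by under 1% of their mean (SD). The most even genes under MeJA were rank 97, at 603, 606 and 606 TPM, rank 165, at 459.6, 464 and 461 TPM, and rank 12, at 1699, 1713 and 1715 TPM. Their MeJA coefficients of variation were 0.24%, 0.49% and 0.50%. In the controls they stood at 783, 804 and 788 TPM, at 563, 541 and 510.1 TPM, and at 2255, 2252 and 2209 TPM, all above their MeJA libraries.

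Genes lay close on both sides of each limit of the rule. At the control limit, rank 179 had a control mean of 501 TPM and rank 178 of 503 TPM, while the gene nearest below had 498 TPM in controls and 373 TPM under MeJA. At the limit of 0.5, the highest MeJA library was 51.8% of the lowest control for rank 158, 52.0% for rank 27 and 52.3% for rank 13, and 49.9% for the nearest gene left out. At the limit of separation, rank 166 had its highest MeJA library at 99.3% of its lowest control, and the nearest gene left out stood at 100.8%.

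In limma, fitted on log2(TPM + 1) over all genes tested, 151 of the 179 genes had an adjusted p under 0.05 in the lower direction, against a background of 12.6% of all genes. The rule used the same contrast, so nothing is read from that count. It depended on single libraries, as did the share of all genes called lower. Leaving out control library 1 gave 45 of the 179 and 4.49% of all genes, control library 2 gave 82 and 6.85%, and control library 3 gave 98 and 6.23%. Without MeJA library 1 the count was 58 beside 5.07% of all genes, without MeJA library 2 it was 161 beside 15.04%, and without MeJA library 3 it was 123 beside 8.45%. When only libraries 2 and 3 of both groups were fitted, limma called 0 of the 179 and 20 of all genes (0.0363%). In that fit 98 of the 179 and 12.7% of all genes were lower at an unadjusted p under 0.05. Of the 28 genes not called with all 6 libraries, 18 lay at 80% or more of the control mean. Among ranks 1 to 10 those not called were 2, 7 and 8, and rank 7 had a coefficient of variation of 14.1% in controls and 10.8% under MeJA.

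The libraries of a group differed in a pattern that most of the 179 genes shared and that the rule did not use. Under MeJA library 2 was highest, library 1 in the middle and library 3 lowest in 135 genes (75.4%), while the reverse order was found in 19 (10.6%). The median level relative to the control mean was 75.8% in MeJA library 2, 68.4% in library 1 and 64.3% in library 3. In the 54 other genes of at least 500 TPM in controls the same order was found in 33.3% and the reverse in 55.6%. In the 750 genes of 100 to 500 TPM in controls that were also lower in every MeJA library, the shares were 69.1% and 9.07%, close to those of the 179. Of the 19 genes with the reverse order, 10 lay at 80% or more of the control mean. In controls no order was as common, with library 2 highest and library 3 lowest in 66 genes and the reverse in 38. Library 1 held the middle value in 154 of the 179 genes (86.0%) under MeJA and in 104 (58.1%) in controls. This was not particular to the 179. Both orders counted above have library 1 in the middle, and they made up 33.3% and 55.6% of the 54 other genes under MeJA. In controls they made up 44.4% and 33.3% of those 54. Library 1 also shared more exactly equal values with some libraries than other pairs did. Of the genes above 0 in at least 1 library of a pair, 0.815% had equal values in MeJA libraries 1 and 3, 0.678% in control library 1 and MeJA library 1, and 0.576% in control libraries 1 and 2. The other 12 pairs lay between 0.0969% and 0.271%, and 0 of the 179 genes had an equal value in any pair. The limma counts without each single library are given above, and most of them were lower than with all 6 libraries. Whether library 1 has a part in the calls beyond the loss of a sample was not tested. The source of the equal values was not tested either.

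The spread of the 179 genes was larger under MeJA than in controls on the deposited scale, with a median coefficient of variation of 8.36% against 3.52%, and it was larger under MeJA in 134 genes. Scaling the libraries by median-ratio size factors changed this. The size factors were 1.07 to 1.09 in controls and 0.93, 1.00 and 0.86 in MeJA libraries 1, 2 and 3. After division by them the median coefficients of variation were 3.93% under MeJA and 4.13% in controls. The median levels relative to the control mean were then 79.0%, 81.8% and 80.1% in MeJA libraries 1, 2 and 3, and 61 genes had the order 2, 1, 3 against 60 with the order 3, 1, 2. MeJA library 1 still held the middle value in 121 of the 179 genes (67.6%), against 154 in the deposited values. On that scale the coefficient of variation was larger under MeJA in 100 genes.

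**Figure D3:**
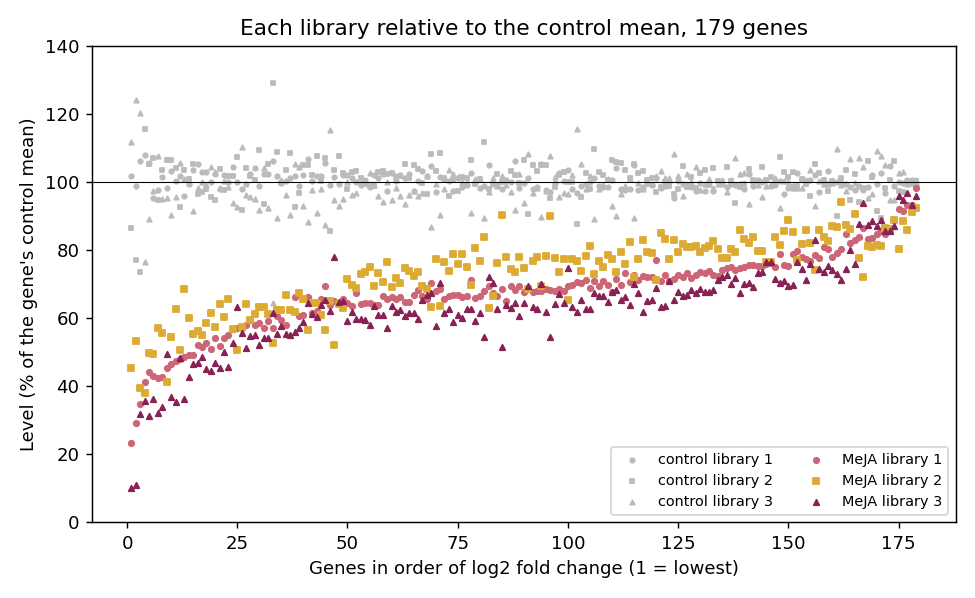
Level of each of the 179 genes in each library as a percentage of that gene's control mean, with genes in order of log2 fold change from the lowest (left). Grey points are the 3 control libraries, and the coloured points show MeJA library 2 above library 1 and library 3 in most genes, with medians of 75.8%, 68.4% and 64.3%.

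The size of the difference also depended on the scale. With size factors the median over all tested genes went from -0.17 to -0.01 (log2), and that over the 179 genes from -0.54 to -0.32. The difference of medians between the 179 and all genes was -0.36 in the deposited values and -0.32 with size factors. Dividing each library by 1 number moves nearly all genes alike on the log2 scale. The similarity of these differences was thus fixed in advance, and nothing is read from it. Under size factors limma called 88 of the 179, beside 6.74% of all genes in the lower direction. On that scale 156 of the 179 had every MeJA library below every control, beside 18.3% of all genes tested. The rule chose the 179 for this separation in the deposited values, so nothing is read from that count. Of the 23 genes without the separation under size factors, 6 had a log2 fold change above 0, ranks 16, 95, 116, 148, 159 and 174, at most 0.15. For these 6 the direction depended on the scaling. The MeJA mean of the 179 genes was 79.9% of the control mean at the median under size factors.

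Genes moderately lower under MeJA were more frequent at high levels than at 1 to 10 TPM, and so were genes higher in every MeJA library. Neither share rose at every step. Among tested genes with a mean over all 6 libraries of 1 to 10 TPM, 18.0% met the separation and the limit of 0.5, and 42.2% did at 10 to 100 TPM. The shares were 49.1% at 100 to 500 TPM, 62.7% at 500 to 1000 TPM and 57.1% at 1000 TPM or more. Genes higher in every MeJA library made up 9.52% at 1 to 10 TPM, 17.2% at 10 to 100 TPM and 28.2% at 100 to 500 TPM. They made up 23.7% at 500 to 1000 TPM and 32.9% at 1000 TPM or more. With size factors their share was highest at 100 to 500 TPM, at 38.6%, and it was 31.0% and 32.9% in the classes above. Overlapping groups were found in 68.5% of the genes at 1 to 10 TPM and in 7.14% at 1000 TPM or more. In the deposited values the larger shares in both directions than at 1 to 10 TPM thus went with fewer overlapping groups. The median log2 fold change does not need separation. It was -0.17 at 1 to 10 TPM, -0.18 at 10 to 100 TPM, -0.17 at 100 to 500 TPM, -0.40 at 500 to 1000 TPM and -0.38 at 1000 TPM or more. With size factors the medians of the classes from 1 to 500 TPM were -0.02, 0.03 and 0.05, and those of the upper classes -0.18 and -0.17. The upper classes contain most of the 179 genes, so these values are a description and no test of them.

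**Figure D4:**
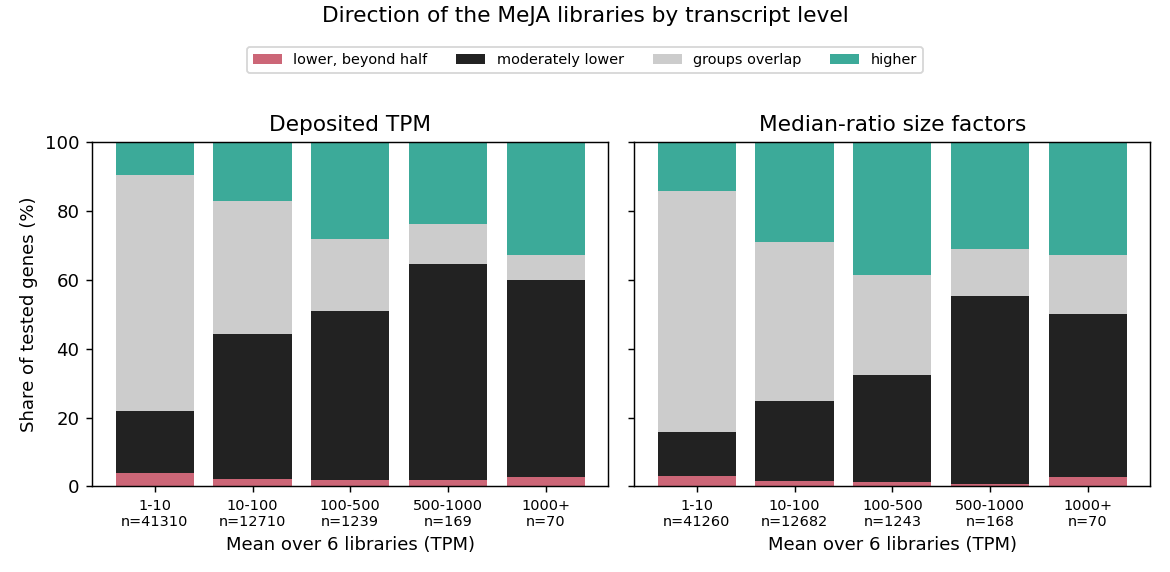
Share of tested genes, in percent, by the place of the 3 MeJA libraries relative to the 3 controls, in classes of the mean TPM over the 6 libraries, for the deposited values (left) and after median-ratio size factors (right). The black part, genes lower in every MeJA library with the highest MeJA value above 0.5 of the lowest control, is 18.0% at 1 to 10 TPM and 62.7% at 500 to 1000 TPM in the deposited values, and 12.7% and 54.8% with size factors.

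Every library sums to the same total, so a lower share of some genes goes with a higher share of others. The 23 genes of at least 500 TPM in controls that were higher went from 2.39% ± 0.107 to 6.85% ± 2.34 of the total (SD, n = 3 each), and the 6862 genes below 500 TPM with every MeJA library above every control from 10.8% ± 0.107 to 26.5% ± 1.43. The 23 genes held 7.15%, 4.37% and 9.03% in MeJA libraries 1, 2 and 3, the reverse of the order seen in most of the 179. The 16153 genes below 500 TPM with every MeJA library below every control went from 38.0% ± 0.343 to 25.5% ± 1.70, a difference of -12.5 percentage points beside the -6.34 of the 179 genes. The 22 overlapping genes of at least 500 TPM had 1.97% ± 0.209 in controls and 1.98% ± 0.182 under MeJA.

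Some of the 179 genes are related by assembly. The identifiers name a component of the assembly graph and a gene within it. Genes of a component may share part of their sequence, as alleles, close copies or fragments of a transcript can. That was not checked, because no sequences were available. The 179 genes fell in 159 components, and 38 of them shared a component with another of the 179, in 16 pairs and 2 groups of 3. Within these 18 components the MeJA levels relative to controls differed by 1.29 to 17.2 percentage points, with a median of 7.34. The widest was the group of ranks 58, 69 and 155, at 55.5%, 44.0% and 38.2% of the control mean. Ranks 87 and 113 were closest, at 67.9% and 69.2%. How reads were divided between such genes is not given in the sources used here, so their separate levels are uncertain.

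Other genes of the same components were not chosen by the rule, though they may share reads with the 179 and come from the same libraries. There were 485 of them, and 450 passed the filter of a mean of at least 1 TPM. limma called 70 of these lower (15.6%) and 11 higher (2.44%), beside 12.6% lower and 6.15% higher over all genes tested, and the median log2 fold change was -0.28. At a control mean of 1 to 10 TPM limma called 5.33% of 319 such genes lower, against 6.44% of all genes at that level, and 6 of the 319 higher, against 3.13% of all genes. At 10 to 100 TPM it called 29.2% of 72 genes lower, against 29.0% of all genes, and 3 of the 72 higher, against 8.93%. The 2 neighbours of 500 TPM or more were outside the 179 only because their change failed the rule, so they are left out of the next class, whose upper bound was set after the values were seen. At 100 to 500 TPM limma called 31 of 43 neighbours lower (72.1%), against 47.6% of all 1230 genes at that level, with median log2 fold changes of -0.48 and -0.27. It called 0 of the 43 higher, against 13.0% of all genes there. At an unadjusted p under 0.05 in limma 0 of the 43 were higher, against 215 of all 1230 genes there. None of these gaps between neighbours and all genes was tested. The count of 70 depended on single libraries, as the share of all genes did. It was 26, 34 and 41 when control library 1, 2 or 3 was left out, beside 4.49%, 6.85% and 6.23% of all genes. It was 32, 75 and 58 when MeJA library 1, 2 or 3 was left out, beside 5.07%, 15.04% and 8.45%, and 44 with size factors, beside 6.74%. When only libraries 2 and 3 of both groups were fitted, limma called 0 of the neighbours lower and 1 higher. In that fit 73 neighbours were lower at an unadjusted p under 0.05 in limma, beside 12.7% of all genes. The count of 11 became 6 or 7 when control library 1 or 3 was left out, 5 when MeJA library 1 was, and 22 with size factors. All genes called higher were not counted in these fits, so these changes are not read as particular to the neighbours. With size factors the median log2 fold change of all genes tested also went from -0.17 to -0.01.

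Some neighbours went against the gene they share a component with. Apart from the 2 called higher with the largest log2 fold change, those described next were chosen after their values were seen. A neighbour of rank 1, the most abundant transcript of the control leaf, had 54.4, 63.5 and 54.8 TPM in controls and 226, 203 and 235 TPM under MeJA. Its mean rose from 57.6 ± 5.12 TPM in controls to 221 ± 16.4 TPM (SD, n = 3 libraries each). The log2 fold change was 1.93 with a standard error of 0.09 and an adjusted p of 0.000243 in limma, with the groups far apart while rank 1 itself was lower in every MeJA library. The rise passed the threshold in all 14 alternatives, with log2 fold changes of 1.87 to 2.14 and adjusted p values of 0.000148 to 0.0453. The largest rise was that of TRINITY_DN20570_c3_g7, in the component of rank 151, at 2.78, 3.32 and 0.36 TPM in controls and 65.2, 31.6 and 72.4 TPM under MeJA. Its log2 fold change was 4.27, with a standard error of 0.51 and an adjusted p of 0.00362 in limma. Over the 14 alternatives the adjusted p was 0.00203 to 0.0896, and it missed the threshold in 1 of them, the fit of only libraries 2 and 3.

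In that component 3 of the other genes fell, and 2 were not called. One of those that fell stood at 23.9, 21.4 and 23.0 TPM in controls and 2.12, 5.45 and 0.53 TPM under MeJA, with -2.92 ± 0.48 (SE) on the log2 scale and an adjusted p of 0.0101 in limma. Another had 7.81, 9.98 and 6.19 TPM against 0.83, 1.77 and 0.09 TPM, with -2.33 ± 0.39 (SE) and an adjusted p of 0.0104 in limma. The other that fell had 9.55, 11.8 and 12.0 TPM against 6.84, 7.75 and 5.12 TPM, with -0.69 ± 0.17 (SE) and an adjusted p of 0.0380 in limma. Rank 151 itself was at 569, 581 and 571 TPM in controls and at 413, 454 and 375 TPM under MeJA, far above its neighbours in every library. A neighbour of rank 2 fell from 156, 167 and 158 TPM to 29.6, 49.3 and 15.9 TPM, with -2.45 ± 0.36 (SE) on the log2 scale and an adjusted p of 0.00695 in limma. That fall passed the threshold in 13 of 14 alternatives, and in the fit of only libraries 2 and 3 its adjusted p was 0.123. TRINITY_DN15478_c0_g1, a neighbour of rank 84 with the rise ranked 2, had 1.15, 0.31 and 0.22 TPM in controls and 12.1, 2.15 and 16.9 TPM under MeJA. Its log2 fold change was 2.58 ± 0.67 (SE), with an adjusted p of 0.0413 in limma. It passed the threshold in 6 of 14 alternatives, over which the adjusted p was 0.00391 to 0.227. The call was lost when any control library, MeJA library 1 or MeJA library 3 was left out, with the replicate block, without the intensity trend, and in the fit of only libraries 2 and 3.

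**Figure D5:**
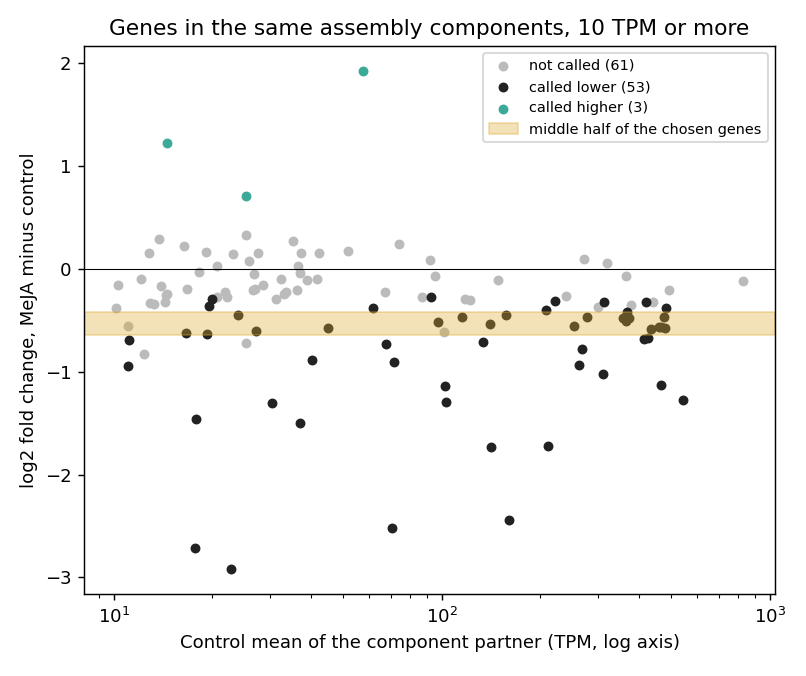
log2 fold change, MeJA minus control, against control mean in TPM (log axis) for the 117 genes of at least 10 TPM in controls that share an assembly component with one of the 179 genes. Of these, 53 were called lower (black), 3 higher (green) and 61 were not called (grey), and the band spans the quartiles of the 179 genes, -0.64 to -0.42.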

How the data were processed

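The 3 control and 3 MeJA libraries of leaf RNA were grouped and numbered by their titles. The authors deposited 1 value for every assembled gene in each library, read here as TPM because each library sums to 1000000 within rounding and low values share no common step. The gene names look like those of the Trinity assembler. Software versions, quantification and filters are not given in the sources available. Values in TPM carry no read depth, so depth is unknown and no counting interval is given. Both groups were compared by limma (version 3.58.1, in R 4.3.3) using log2(TPM + 1), a trend of variance with level, and group as the only term. Genes averaging 1 TPM or more entered, which kept 55498, and those with a Benjamini-Hochberg adjusted p under 0.05 (two-sided) were called. The scale understates changes of low genes. The procedure was tested on data simulated from the means and SDs of the control libraries. That simulation lacks the larger spread of the deposited MeJA values, so it does not vouch for the calls made here. Alternatives covered scaling, filters, pseudocount, variance trend, library block and libraries left out. The genes and lists were chosen with earlier results of these data known. Described in full are ranks 1 to 10, the 3 lowest and 3 highest log2 fold changes, the 3 most and 3 least even genes under MeJA, and genes at the limits. At most 2 identifiers are printed per direction, and among component neighbours these are the 2 called higher with the largest log2 fold change.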

Additional observations from a re-analysis of the deposited data

How the results depend on the processing

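Median-ratio size factors gave 148 genes by the rule (144 of the 179), quantile normalization 173, and leaving out 1 library 172 to 182. A control minimum of 250 TPM gave 368 genes and one of 1000 TPM gave 61. With size factors limma called lower 3733 of all genes (6966 as deposited), 88 of the 179 (151) and 44 component neighbours (70), and 22 neighbours higher (11). The median log2 fold change of the 179 was then -0.32 and the difference in their summed share -4.03 percentage points. Without the variance trend 4571 of all genes, 82 of the 179 and 44 neighbours were called lower, and the cause was not tested. A replicate block for library number gave 3573 of all genes, 103 of the 179, and 46 neighbours lower. Deviations of same-numbered control and MeJA libraries were hardly correlated (0.020, -0.013 and -0.007). Exactly equal values, counted as above, made up 0.678% for the libraries numbered 1, 0.144% for those numbered 2 and 0.152% for those numbered 3. Whether same-numbered libraries share more than a number was not tested further. Leaving out 1 library, which leaves fewer samples, gave 2471 to 8281 of all genes, 45 to 161 of the 179, 26 to 75 neighbours lower and 5 to 15 higher, a median of -0.59 to -0.47 and a share difference of -6.76 to -5.93. Fitting only libraries 2 and 3 gave 20 of all genes (0.0363%), 0 of the 179, and 0 neighbours lower and 1 higher. Dropping the filter, raising it to 5 TPM or using a pseudocount of 0.1 kept these counts within 1.5 times. Among 27 described genes, 4 had a log2 fold change above 0 in some alternative, in each case size factors. All genes called higher were not counted in the alternatives, so the counts of neighbours called higher have no background there. The alternatives for single neighbours were added after seeing the data. Unknown depth limits statements on neighbours at few TPM.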
